A study of Caenorhabditis elegans with 3 samples.

Results

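Promoter peaks of UNC-55 on the arms of 4 autosomes of the nematode Caenorhabditis elegans numbered 847 of the 5993 peaks in the authors' optimal list. A member was a peak on chromosome II, III, IV or V whose summit lay within 3.5 Mb of either chromosome end and between 2000 bp upstream and 500 bp downstream of a protein-coding transcript start. Within the optimal list the rule used position alone and no measured level. The list itself holds only peaks that passed the authors' threshold for reproducibility. The chromosomes are 13.8 to 20.9 Mb long, so each has 2 arms and a centre under this rule, and the 4 centres held 1832 promoter peaks by the same window. The first members on either side of the limits show how the rule cuts. On chromosome III the summit near K10G9.2 (signal 175.7) was 630 bp inside an arm and that near M01F1.9 (signal 123.0) 71 bp inside the centre. At the far upstream edge F54C4.4 was included at -1997 bp and mca-3 left out at -2017 bp.

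The data came from chromatin immunoprecipitation followed by sequencing (ChIP-seq) on whole L2 larvae of mixed sex. All 3 samples, biological replicates 1, 2 and 3, formed a single group of strain NC1639. This strain carries the integrated transgene wdIs49 on chromosome III, in which the ttr-39 promoter, active in GABA motor neurons, drives a UNC-55a::GFP fusion, and which also carries dpy-20+. The labels conflict on the tag, since each sample's description names eGFP-unc-55 as the target and a note on replicate 3 alone describes a C-terminal GFP-FLAG tag. The labels give a fragment size of 150 to 350 bp for replicates 1 and 2 and microtip sonication for replicate 3. The peaks were thus called in whole animals that carry a transgene, and the labels used here include no untagged or mutant group.

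UNC-55 is a nuclear hormone receptor of the COUP-TF family, a group of DNA-binding proteins that mostly repress transcription, and in C. elegans it is known for setting the synaptic pattern of a class of GABA motor neurons. C. elegans autosomes have 2 kinds of territory. The centres recombine little and hold many conserved, broadly expressed genes. The arms recombine more, hold more repeats and more histone H3 lysine 9 methylation, and contact the nuclear lamina. They also carry large, fast-evolving families such as F-box genes.

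The sequence under the summit of the strongest promoter peak on each arm that had no untranslated, coding or soft-masked base within 50 bp is printed here, to show the letters behind the composition results further on. All are on the plus strand of ce11, from the RefSeq sequence, with the summit in the middle. Capitals mark the 15 hexamers that were most frequent at arm summits relative to their flanks, on either strand. The stretches lie at chrII:2889348-2889448 (II, left arm), chrII:13834530-13834630 (II, right arm), chrIII:1619085-1619185 (III, left arm), chrIII:12905144-12905244 (III, right arm), chrIV:654872-654972 (IV, left arm), chrIV:16531796-16531896 (IV, right arm), chrV:2600684-2600784 (V, left arm) and chrV:20828983-20829083 (V, right arm).
pinn-1: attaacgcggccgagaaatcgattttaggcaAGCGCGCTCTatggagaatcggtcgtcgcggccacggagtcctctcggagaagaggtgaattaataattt
F08G2.5: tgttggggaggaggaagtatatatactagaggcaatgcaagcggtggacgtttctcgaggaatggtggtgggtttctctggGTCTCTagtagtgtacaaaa
Y22D7AL.10: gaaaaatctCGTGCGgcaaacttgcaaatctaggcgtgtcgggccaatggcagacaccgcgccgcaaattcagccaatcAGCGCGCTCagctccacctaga
cox-5A: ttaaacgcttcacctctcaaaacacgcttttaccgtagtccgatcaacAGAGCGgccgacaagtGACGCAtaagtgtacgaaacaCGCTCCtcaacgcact
rpl-15: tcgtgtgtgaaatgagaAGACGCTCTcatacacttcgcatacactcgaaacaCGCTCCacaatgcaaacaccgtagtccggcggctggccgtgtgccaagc
Y51H4A.6: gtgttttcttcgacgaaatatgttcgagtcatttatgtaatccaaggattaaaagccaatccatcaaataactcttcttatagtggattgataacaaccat
F53E10.5: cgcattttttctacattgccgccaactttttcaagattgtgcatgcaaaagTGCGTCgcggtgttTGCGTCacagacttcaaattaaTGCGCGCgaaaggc
sbt-1: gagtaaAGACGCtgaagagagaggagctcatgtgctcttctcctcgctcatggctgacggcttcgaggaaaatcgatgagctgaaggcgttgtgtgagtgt
The lines are named by the gene with the nearest coding start. The window at Y22D7AL.10 had the highest GC content of the 8, 56.4%, and that at Y51H4A.6 the lowest, 32.7%. The window at Y51H4A.6 held none of the 15 hexamers.

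The strongest member was the peak upstream of rpl-15, which encodes a protein of the large ribosomal subunit (WBGene00004427, chromosome IV, 654739 to 655076, intergenic). Its signal of 1056 was the 4th highest in the optimal list, and it ranked 3, 4 and 4 in replicates 1, 2 and 3. The signal is the value written by the authors' peak caller, and it was used only to rank and describe peaks within a list. On the same arm, the peak of rps-28, a small-subunit ribosomal protein gene (568.6, ranks 33, 55 and 117), and a peak between Y55F3AR.2 and cct-8, a subunit of the cytosolic chaperonin (529.5, ranks 76, 49 and 59), came next. Ranks here are those of the best-placed replicate peak that overlaps the member by at least 1 bp.

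On the right arm of IV the 3 strongest peaks were at eelo-2 (signal 753.7), at dld-1, the dihydrolipoamide dehydrogenase of mitochondrial dehydrogenase complexes (749.6), and at ntl-11, a CCR4-NOT subunit (493.2). On the right arm of III they were at tasp-1, a threonine aspartase (812.7, ranks 10, 9 and 13), at cox-5A, a cytochrome c oxidase subunit (720.8, ranks 17, 21 and 12), and at set-16, a histone H3 lysine 4 methyltransferase (496.6). On the left arm of III they were at rab-18, a small GTPase whose window is shared with par-2 and kbp-4 (623.0), at Y71H2AM.20 with the respiratory chain genes cox-6B and nduc-2 (581.7), and at Y22D7AL.10 with the mitochondrial chaperonin hsp-60 (541.7). Each of these 9 peaks ranked among the 200 strongest of every replicate.

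The 3 strongest on the left arm of II were at scc-2, the cohesin loader (574.8), at dnsn-1 (448.3) and at mrpl-28, a mitochondrial ribosomal protein gene (448.2). On its right arm they were at Y48B6A.1, shared with rpl-43 and the exoribonuclease gene xrn-2 (596.5), at cmtr-1, a cap methyltransferase (472.4), and at eif-3.B, a translation initiation factor (453.1). Chromosome V had the weakest leaders. On its left arm they were at T10B5.4 with the chaperonin subunit cct-7 (393.9), W02G9.3 (316.7) and picd-1 with rps-27 (286.7). On its right arm they were at Y39B6A.43 (507.7), at sbt-1, the 7B2 chaperone of neuropeptide processing, shared with num-1 (424.7), and at Y59A8B.24 (395.6). The peak at sbt-1 ranked 69, 340 and 244 in the 3 replicates.

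At the other end, H10E21.4 (45.8), gst-24 (45.9) and tbcc-1 (45.9) had the lowest signals among members, next to the lower limit of the list itself. Members whose replicate ranks differed most were those at Y51H7C.3 (3279, 1480 and 22655), W01D2.3 (26315, 2090 and 2364) and ccar-1 (648 and 950 in replicates 2 and 3, and among the 200 strongest in replicate 1). Those that differed least were at cutl-22 (3911, 3826 and 3817), ivph-3 (3950, 3994 and 4120) and ccf-1 (1270, 1225 and 1285).

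Fewer genes on the arms than in the centres carried a promoter peak. In the optimal list 1077 of 5032 protein-coding genes on the arms had a summit in their window (21.4%), against 2357 of 9332 in the centres (25.3%), beside a background of 25.5% over all 19973 nuclear protein-coding genes. Each replicate's own 5993 strongest peaks gave 21.1%, 20.7% and 20.5% on the arms, against 25.9%, 26.5% and 26.2% in the centres. The replicates thus averaged 20.8% ± 0.284 on the arms and 26.2% ± 0.322 in the centres (SD, n = 3), a difference of -5.42 ± 0.548 percentage points, with arms lower in 3 of 3. The exact sign-flip permutation test over replicates, two-sided, gave p = 0.25, which is the smallest p that 3 replicates allow, so no comparison of this kind can pass 0.05. The spread is over biological replicates that shared 1 control, and the optimal list was chosen from the same replicates.

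The arms differed from each other by more than arms and centres did. The right arm of III was highest, with 40.3% of its genes carrying a peak, and the left arm of V lowest, with 11.1%. The centres ran from 17.1% on V to 41.8% on III. On II the left arm (12.9%) and the right arm (26.96%) stood far apart, against 27.9% in the centre. On III the left arm had 30.9%, and on V the right arm had 12.97%. The left arm of IV (27.1%) was the only arm above its own centre (24.4%) in the optimal list, while the right arm had 19.6%. In replicate 3 that left arm had 24.5%, against 25.4% in the centre of IV. Arm minus centre within each chromosome averaged -11.8 ± 0.325 points on II, -6.66 ± 0.776 on III, -2.31 ± 0.952 on IV and -6.72 ± 0.625 on V (SD, n = 3), so that all 4 chromosomes had arms below centres in every replicate. Within the arms, 22.2% of genes less than 1.75 Mb from the chromosome end had a peak and 20.7% of genes further in.

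**Figure D1:**
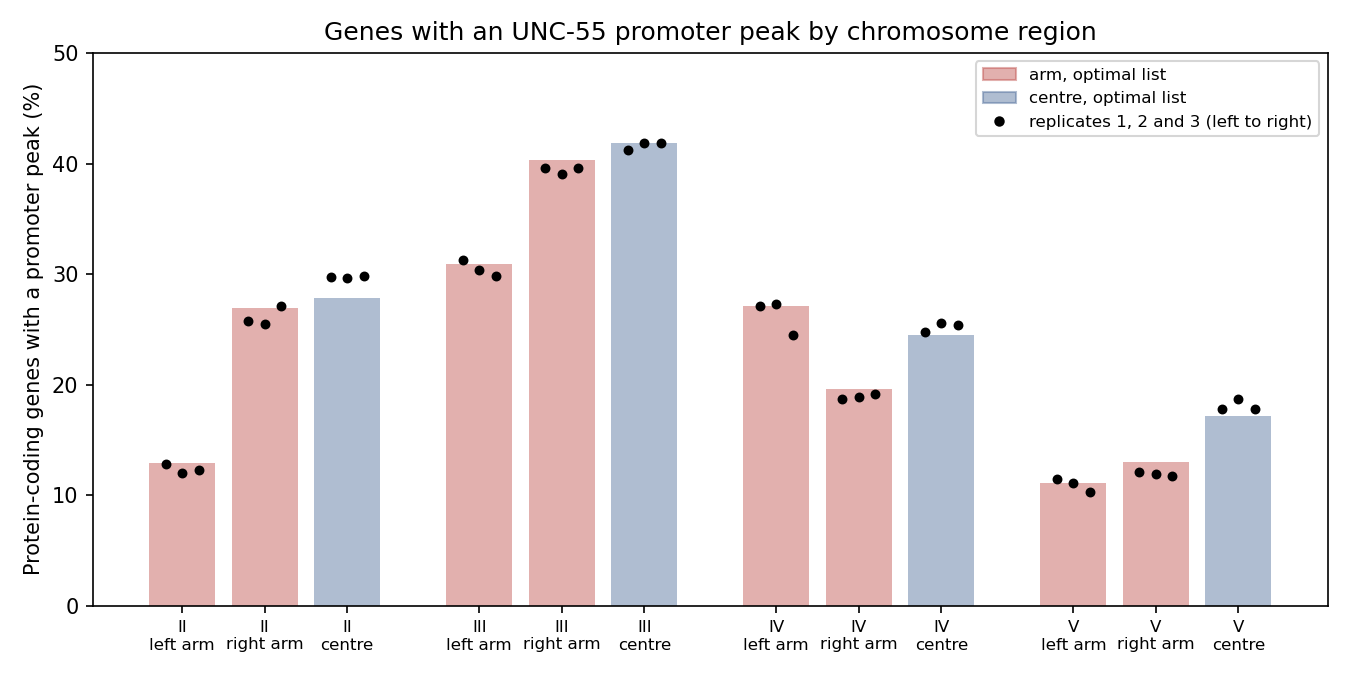
Share of protein-coding genes with an UNC-55 promoter peak, in percent, on each arm (red) and centre (blue) of chromosomes II to V. Bars give the optimal list and dots replicates 1 to 3; the arms run from 11.1% on the left of V to 40.3% on the right of III, and the replicates of a region lie close together.

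As a group, genes of large families rarely carried a peak, on the arms or in the centres. Chemoreceptor, F-box, MATH or BTB domain, C-type lectin and nuclear hormone receptor genes together made up 939 of the arm genes, and 48 of them had a peak (5.11%), against 44 of 1101 in the centres (3.996%). Among these families, only F-box (216 against 73) and MATH or BTB domain genes (74 against 11) were more numerous on the arms by count. The arms hold fewer genes in all, 5032 against 9332, so these counts do not compare shares. The share of all these family genes ran from 2.50% of the genes on the right arm of III to 38.1% on the left arm of V. Those were the arms with the highest and the lowest share of genes with a peak. Other arms did not all follow that order. The left arm of III had 13.6% family genes and 30.9% of genes with a peak, and the right arm of IV 10.55% and 19.6%. Without these families the share with a peak was 25.1% on the arms and 28.1% in the centres, and replicates averaged 24.3% ± 0.328 and 29.1% ± 0.340 (SD, n = 3). The arms were still lower, and 6 of the 8 arms stayed below their own centre. The arms also still differed widely, with 40.95% on the right arm of III and 15.8% on the left arm of V. Genes with a gene-class name had a peak more often (24.9% on arms, 29.5% in centres) than genes known by a sequence name only (17.3% on arms, 19.8% in centres).

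Over all genes, 21.4% on the arms and 25.3% in the centres had a peak. Among chemoreceptor genes, 7 of 475 on the arms had one, against 17 of 767 in the centres. For 5 of the 7 no peak had that gene's own start as its nearest, as at srt-41, where the summit at -1978 bp is shared with the small heat shock genes hsp-16.2 and hsp-16.41. The strongest peak in the srbc-58 window (signal 259.6, at -1557 bp) is shared with the co-chaperone gene sti-1. F-box genes had a peak in 21 of 216 cases on the arms and 6 of 73 in the centres. On the arms fbxb-85 (signal 406.3), which shares its peak with hex-3, led. The peak of fbxa-106 (220.5, at -1777 bp), shared with Y59A8B.12 and slr-2, and that of fbxa-37 (209.1) came next. MATH or BTB domain genes, many of them substrate adaptors of ubiquitin ligases, had one in 6 of 74 on the arms and 6 of 11 in the centres. The replicates gave 3, 3 and 3 of the 74 on the arms and 5, 8 and 8 of the 11 in the centres. C-type lectins had 3 of 86 on the arms against 2 of 115. The gene family of UNC-55 itself, the nuclear hormone receptors, had 11 of 88 on the arms against 13 of 135 in the centres. The strongest on the arms were nhr-280 (222.4, at -1067 bp and shared with pals-22), nhr-256 (202.7) and nhr-58 (159.7).

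Genes for protein synthesis and energy metabolism were at the other extreme. All 9 cytosolic ribosomal protein genes on the arms had a promoter peak, against 43 of 46 in the centres, and the 9 were found in each of the 3 replicates. Mitochondrial ribosomal protein genes had 15 of 19 on the arms, led by mrps-7 (488.4), mrpl-28 (448.2) and mrpl-37 (369.7), against 23 of 36 in the centres. Translation factors had 4 of 5 on the arms and 17 of 21 in the centres, and aminoacyl-tRNA synthetases, which charge tRNAs, 3 of 5 against 12 of 18. Proteasome subunits had 3 of 3 (pbs-1 at 293.9, rpt-4 at 206.1 and rpt-6 at 179.1) against 17 of 20. Vacuolar ATPase subunits, which acidify organelles, had 3 of 3 against 9 of 12, but with signals of only 123.2, 80.8 and 48.6 at vha-3, vha-19 and vha-11. Heat shock protein and chaperonin genes had 7 of 9 on the arms against 22 of 36, and respiratory chain subunits 6 of 9 against 12 of 17. The share of all arm genes was 21.4%, and no test of these lists was made.

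A shared window limits what such counts say about a single gene. Only 4 of the 9 ribosomal protein genes on the arms owned the start nearest to a peak, and 3 of the 7 heat shock and chaperonin genes. Of the 847 members, 521 lay in the window of 1 gene, 253 in those of 2 and 73 in those of 3 or more. Conversely, 1076 genes had a member in their window, 916 of them a single one, and gei-4 had the most, 4.

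Genes of the pan-neuronal and GABA neuron lists were few on the arms, and each of them had a peak. The share of all genes was 21.4% on the arms and 25.3% in the centres, and no test of these lists was made. The lists were taken by gene symbol, and the GABA neuron list includes a receptor of body muscle. Whether genes of the pan-neuronal list, such as the tubulin gene tbb-1, are specific to neurons was not examined. All 5 genes of the pan-neuronal list on the arms had a peak in the optimal list and in each replicate. In the centres 14 of 14 had one in the optimal list and in replicates 1 and 2, and 13 of 14 in replicate 3. On the arms the strongest were sbt-1 (424.7), the syntaxin gene unc-64 (251.2) and the tubulin gene tbb-1 (214.5). The peak at tbb-1 also lies in the windows of K01G5.8 and rib-2. The peaks of unc-25, the glutamate decarboxylase that makes GABA, and unc-49, the GABA receptor of body muscle, were both on the right arm of III. The unc-25 summit was at -147 bp (signal 123.1), and it ranked 2976, 2858 and 1902 in replicates 1, 2 and 3. The unc-49 summit was in an intron at -1003 bp (signal 176.0), and it ranked 2438, 698 and 2293. Both signals lay between the quartiles of all members (81.4 and 208.2, median 132.4). They were lower than those of the strongest peaks at cytosolic and mitochondrial ribosomal protein genes on the arms, such as rpl-15 (1056) and mrps-7 (488.4). The weaker peaks of those groups were not compared. Of 9 further genes of the GABA neuron list in the centres, 4 had a peak.

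Neuropeptide genes had 1 of 23 on the arms (flp-16, 124.9) against 3 of 64 in the centres. In the G protein and cAMP group it was 2 of 4, at ric-8 (237.7) and pde-3 (58.0), against 5 of 8, and in the body wall muscle group 4 of 5, led by the myosin chaperone gene unc-45 (220.5), against 5 of 10. Cuticle collagens had 2 of 31 on the arms against 8 of 77, homeobox genes of the ceh class 2 of 13 against 5 of 24, and histone genes 1 of 15 against 6 of 51. Detoxification enzymes (cytochrome P450, glucuronosyl and glutathione transferases) had 10 of 45 on the arms and 10 of 118 in the centres, with 8, 7 and 6 on the arms in the replicates. The 10 of 45 are 22.2%, beside 21.4% of all arm genes and 25.3% of all centre genes. The gst-26 and gst-27 genes share 1 peak (167.1). None of unc-55, ttr-39 and dpy-20, the genes used in the transgene, lies on these arms.

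**Figure D2:**
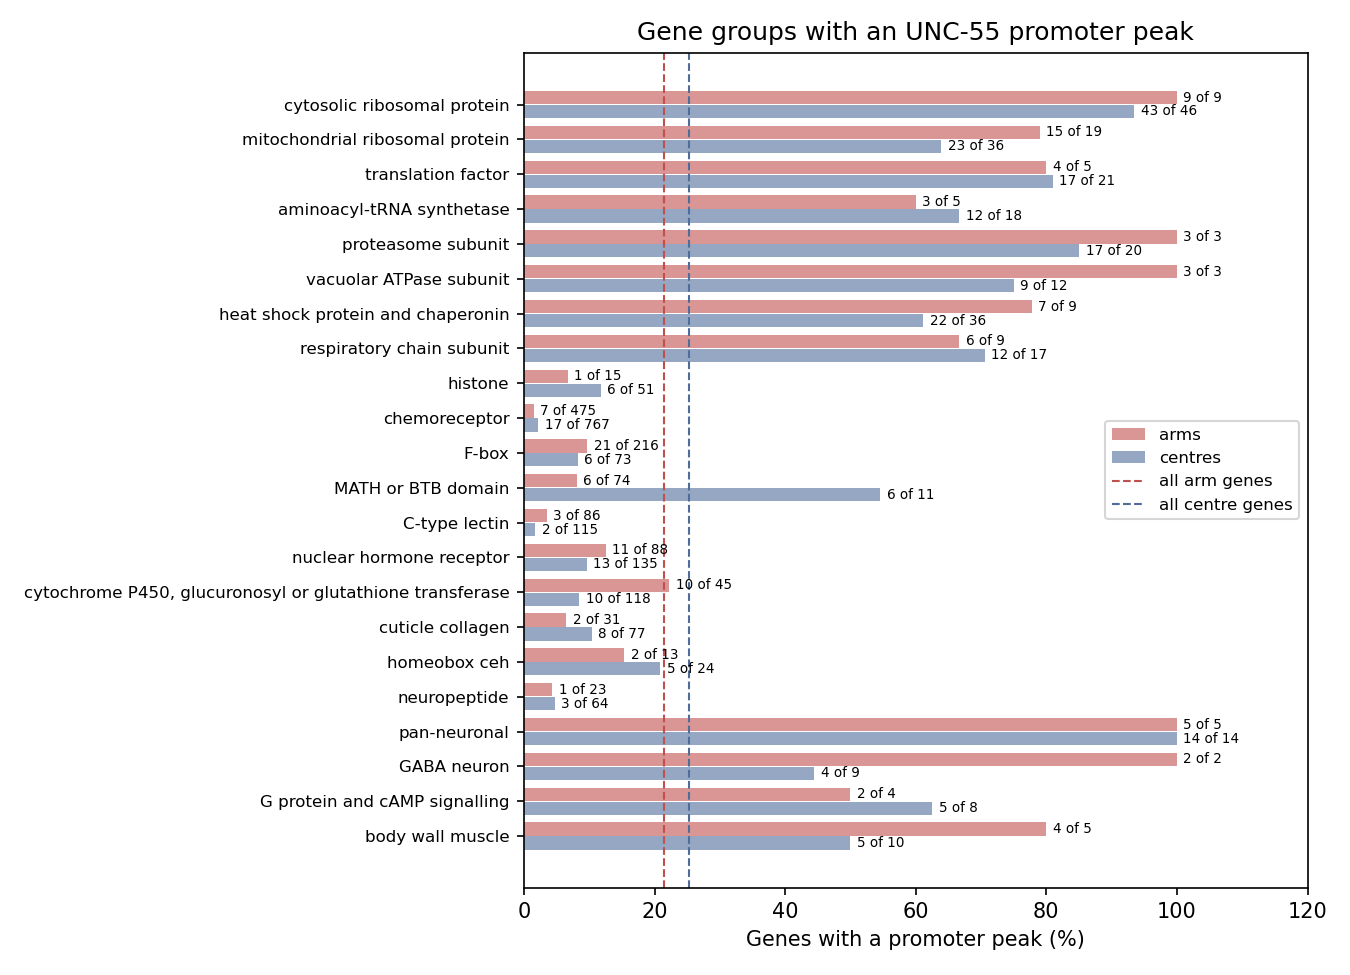
Percent of genes with a promoter peak in the optimal list, by gene group, on arms (red, upper bar) and in centres (blue, lower bar), with the numbers beside each bar and dashed lines at the shares of all arm and all centre genes. Ribosomal, translation, proteasome and pan-neuronal genes lie far above the lines in both territories, and chemoreceptors lie close to 0 with 7 of 475 and 17 of 767.

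Weak calls were spread differently. In the authors' pooled list of 30000 relaxed peaks, 42.9% of arm genes and 38.4% of centre genes had a summit in their window, so arms were above centres there. Of the genes with a pooled summit, 49.9% on the arms and 65.7% in the centres also had one in the optimal list. Whole replicate lists gave arms above centres by 3.44 points in replicate 1 and 2.83 in replicate 2, and arms below centres by -2.48 points in replicate 3. Replicates 1 and 2, like the pooled data, have exactly 30000 peaks listed, and replicate 3 has 25262. Among the promoter peaks of these long lists, median signal on arms was 0.763, 0.813 and 0.831 times that in centres, and soft-masked bases at arm summits exceeded those at centre summits by 12.6, 14.6 and 11.5 points. In these lists the mean difference in GC content at the summit was -0.00590 points and that in median distance -35.2 bp. The lower share of arm genes thus held for the strongest peaks, and its direction turned with weak calls in the pooled list and in replicates 1 and 2 but not in replicate 3.

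Promoter peaks were also sparser along the arms. There were 30.3 per Mb on the arms and 46.4 per Mb in the centres, and over replicates the ratio of arms to centres was 0.615 ± 0.0200 (SD, n = 3; exact sign-flip permutation p = 0.25, 3 of 3 below 1). Arms have fewer genes, 179.7 per Mb against 236.4 in the centres, and promoter windows cover 42.8% of arm sequence against 52.4%. Per Mb of promoter window there were 70.7 peaks on the arms and 88.5 in the centres. All 8 arms lay below their own centre in peaks per Mb, from 19.1 on the right arm of V to 48.3 on the right arm of III. The median gap between neighbouring members was 17341 bp on the arms and 11010 bp between centre peaks.

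Among the strongest peaks, the share of summits that fell in promoter windows was nearly equal. It was 71.2% on the arms (847 of 1189 summits) and 71.3% in the centres (1832 of 2570), beside 68.9% over all 5993 optimal summits. Replicates averaged 70.6% ± 0.676 on the arms and 71.5% ± 0.755 in the centres (SD, n = 3; difference -0.832 ± 0.741 points, exact sign-flip permutation p = 0.5), a difference about as large as its spread. In whole relaxed lists the arms were lower by more, with differences of -8.68, -8.36 and -9.33 points in replicates 1, 2 and 3.

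Members had slightly higher signals than centre promoter peaks. Their median was 132.4 (quartiles 81.4 and 208.2), against 122.9 in the centres (quartiles 76.5 and 197.2). Within replicate lists the ratio of medians was 1.08, 1.09 and 1.06, a mean of 1.08 ± 0.0158 (SD, n = 3; exact sign-flip permutation p = 0.25, 3 of 3 above 1). Among the 2996 strongest peaks of each replicate the ratio was 1.03 ± 0.0376 (SD, n = 3, exact sign-flip permutation p = 0.5). That excess over 1 was smaller than its spread. Members made up 23 of the 100 strongest peaks of the list and centre promoter peaks 30, which is 2.72% of members and 1.64% of centre promoter peaks. Among the 2996 strongest, the shares were 61.2% of members and 56.5% of centre promoter peaks. By arm the median ran from 108.5 on the left of V to 148.1 on the right of V, and 7 of the 8 arms were above their own centre. Members were narrower, with a median width of 249 bp against 267 bp.

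**Figure D3:**
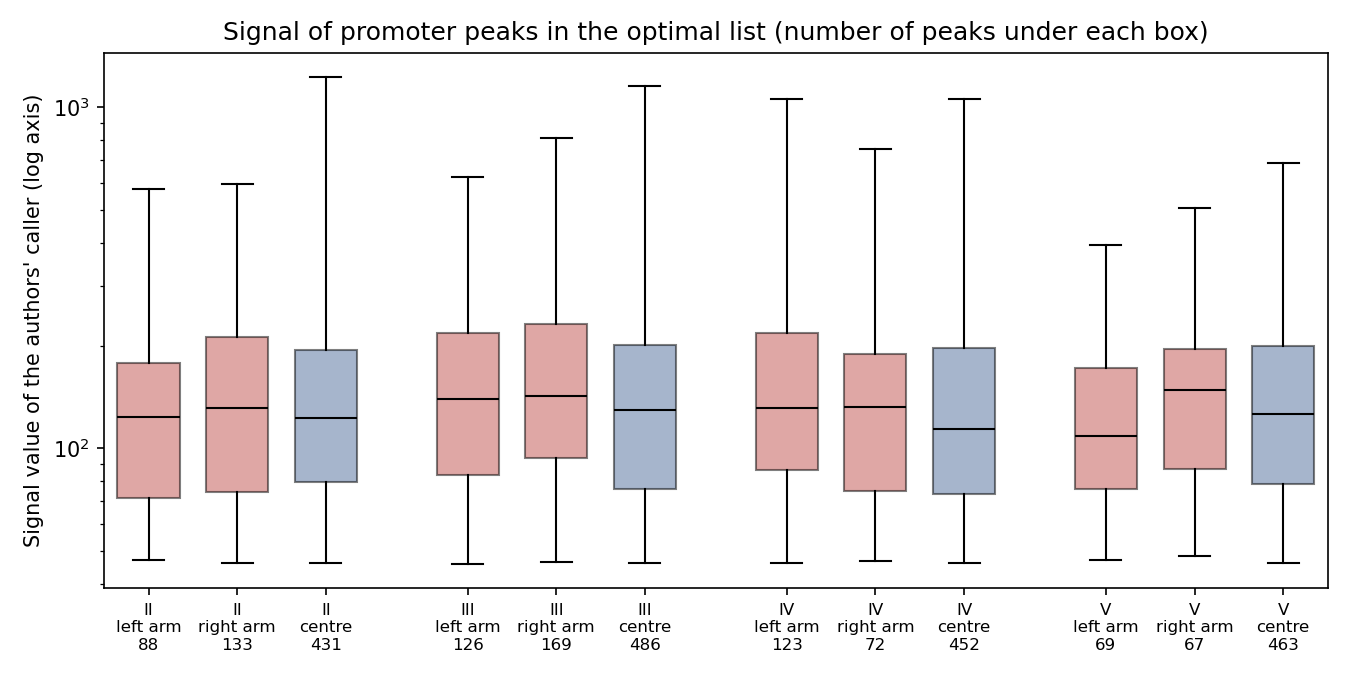
Signal of promoter peaks in the optimal list on a log axis, by arm (red) and centre (blue) of each chromosome, with the number of peaks under each box. Boxes show quartiles and median and whiskers the lowest and highest peak; medians run from 108.5 to 148.1 on the arms and from 113.7 to 129.8 in the centres, with wide overlap.

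Replicates recovered members about as well as centre peaks. With at least 50% of the member covered, 90.1%, 81.6% and 80.2% of the members were matched by a peak among the 5993 strongest of replicates 1, 2 and 3, against 88.9%, 82.3% and 77.5% of centre promoter peaks. All 3 replicates matched 542 members (63.99%) and 1091 centre promoter peaks (59.6%). With an overlap of 1 bp in the whole lists, 810 members (95.6%) and 1758 centre promoter peaks (96.0%) were in all 3. Across the peaks with a rank in every replicate, Spearman's rho of ranks was 0.848, 0.826 and 0.811 on the arms for replicates 1 and 2, 1 and 3, and 2 and 3. In the centres it was 0.825, 0.788 and 0.765. These correlations run across peaks of shared libraries and are descriptions.

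Most members lay just upstream of a start. Of the 847, 770 were upstream of the nearest coding start (90.9%, against 91.4% in the centres), and 532 were within 500 bp upstream (62.8% against 60.04%). The median distance was -205 bp on the arms and -247 bp in the centres. Replicates gave -200, -208 and -201.5 bp on the arms, against -251, -245.5 and -236.5 bp in the centres, so arm summits were closer by 41.2 ± 8.61 bp (SD, n = 3; exact sign-flip permutation p = 0.25, 3 of 3). The right arm of IV, at -268 bp, was further out than its centre and the other 7 arms were closer. By annotation 621 members were intergenic (73.3%), 162 intronic (19.1%), 57 in untranslated regions (6.73%) and 7 in coding exons (0.826%), against 72.2%, 19.9%, 5.90% and 1.97% in the centres. Summits between starts that face away from each other made up 32.2% of members and 32.8% of centre promoter peaks (replicate difference -1.75 ± 0.932 points, exact sign-flip permutation p = 0.25), and with a window of 1000 bp upstream to 200 bp downstream that difference was 1.09 points. Among the 2996 strongest peaks of each replicate it was -6.71 ± 1.49 points (SD, n = 3). A tRNA gene lay within 200 bp of 19 members (2.24%) and 24 centre promoter peaks (1.31%), and a snoRNA gene within 200 bp of 8 (0.94%) and 18 (0.98%). These shares are given without a background over all promoter windows.

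**Figure D4:**
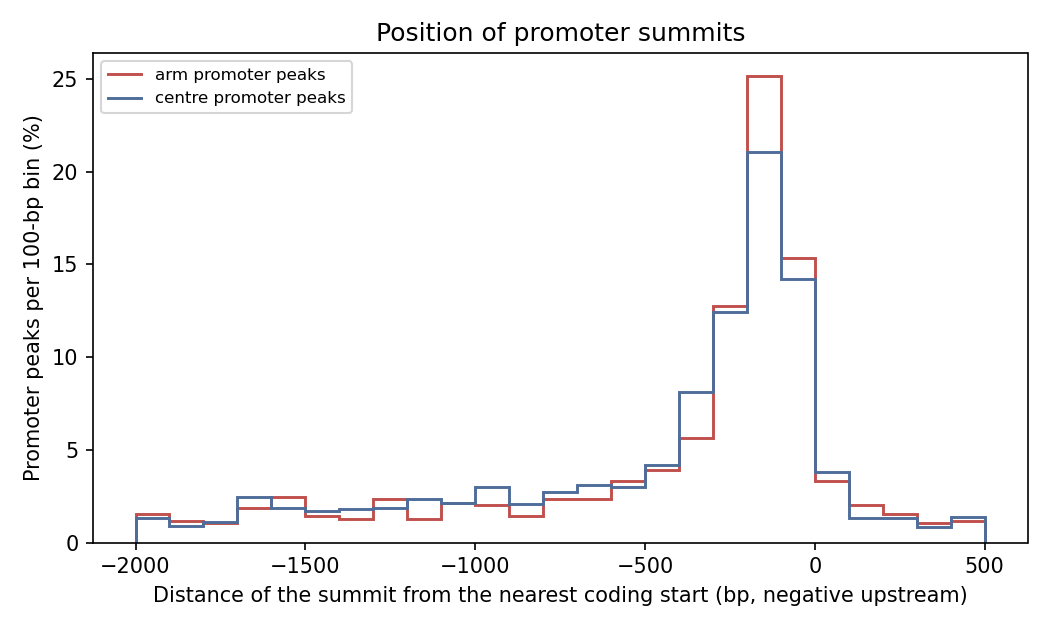
Distance of promoter summits from the nearest coding start, in bp with upstream negative, as percent of peaks in each 100-bp bin for arms (red) and centres (blue). Both territories peak between -200 and -100 bp, where the arms are higher, and the medians are -205 bp and -247 bp.

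Summits on the arms were richer in G and C. Within 50 bp of the summit GC content averaged 45.4% on the arms and 43.1% in the centres. Replicates gave 45.3%, 44.8% and 44.6% on the arms, against 43.1%, 42.4% and 42.5% in the centres, a difference of 2.28 ± 0.103 points (SD, n = 3; exact sign-flip permutation p = 0.25, 3 of 3 higher on the arms). All 8 arms were above their own centre, with 44.3% to 46.8% on the arms and 42.7% to 43.8% in the centres. Whole arm sequence had a GC content of 35.5% and whole centre sequence 35.4%, and windows 300 bp from the summit had 35.8% and 34.8%. In 25-bp windows the arms had 49.7% at the summit, against 46.6% in the centres. At 100 bp to its left the arms had 34.2%, against 35.0%. Further out they were above the centres in most windows, as with 36.8% against 35.1% at 475 bp to the left and 37.3% against 35.7% at 475 bp to the right. In others they were below, as with 35.85% against 37.04% at 925 bp to the left.

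**Figure D5:**
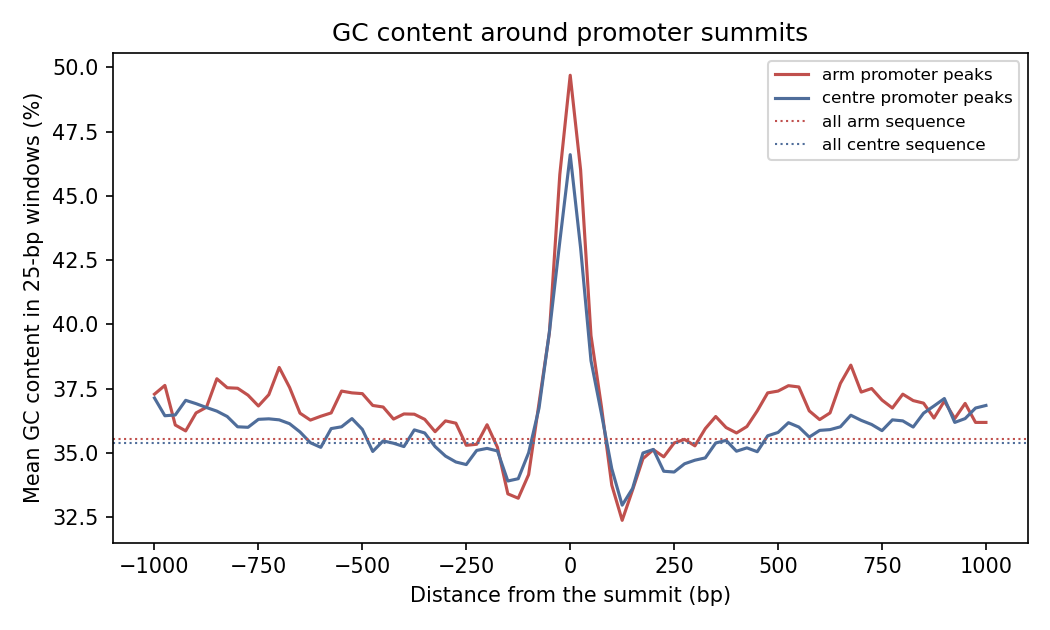
Mean GC content in 25-bp windows from 1000 bp before to 1000 bp after the summit, in percent, for arm (red) and centre (blue) promoter peaks, with dotted lines for the whole territories. Arms reach 49.7% and centres 46.6% at the summit, and the curves meet within 100 bp of it. Further out arms are above centres in most windows, as by 36.8% to 35.1% at 475 bp to the left. They are below in others, as by 35.85% to 37.04% at 925 bp to the left.

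More of the sequence under members was soft-masked, that is, in the lower-case letters by which the reference marks repeats and other overrepresented stretches. Soft-masked bases made up 28.98% of the bases within 50 bp of the summit on the arms and 23.96% in the centres, and 42.2% and 30.6% in the windows 300 bp away. Whole arms were soft-masked over 44.9% of their length and whole centres over 30.3%, so summits in both territories were less masked than their surroundings. The replicates differed by 5.42 ± 0.331 points (SD, n = 3; exact sign-flip permutation p = 0.25, arms higher in 3 of 3). No soft-masked base lay within 50 bp of the summit of 150 members (17.7%) and 440 centre promoter peaks (24.02%). Unique mapping of reads to such sequence could not be examined in these lists, and its part in any of these results was not tested.

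AGGTCA, the core to which many nuclear receptors bind, was rare. It occurred on either strand within 50 bp of the summit in 12 of 847 members (1.42%) and 20 of 1832 centre promoter peaks (1.09%). It was found in 1.77% of arm windows and 2.68% of centre windows 300 bp away. In windows of the same length centred 150 bp upstream of every coding gene it was found in 3.26% of cases on the arms and 2.81% in the centres. The replicate difference between arms and centres, 0.214 ± 0.733 points, was smaller than its spread (exact sign-flip permutation p = 0.75) and was -0.185 points without replicate 2. GAGAGA was common, in 27.3% of members and 25.2% of centre promoter peaks, against 5.20% and 6.80% of their flanks. CACGTG, the E-box recognised by many basic helix-loop-helix factors, was found in 3.19% of members and 1.86% of centre promoter peaks. It was also more frequent on the arms away from summits. Flanks held it in 1.95% and 1.20% of cases, and the windows upstream of every coding gene in 2.23% and 1.49%. GGGCGG was found in 4.49% of members and 4.42% of centre promoter peaks, with flanks at 2.07% and 1.365%. GATAAG was found in 1.89% and 2.07%, with flanks at 2.95% and 4.64%. TATAAA was found in 4.72% and 5.84%, below its flanks at 10.2% and 12.6%.

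Of all 2080 hexamers with their reverse complements joined, most of the 15 leading ones at arm summits relative to arm flanks held a CG pair, AGAGAC being the exception. They were named here after the ranking was seen. GAGCGC led, in 16.7% of members and 1.65% of flanks, followed by GCGCGC (11.9% and 1.18%), AGCGCG (13.9% and 1.42%) and ACGCGC (15.5% and 1.59%). GACGCA (21.02% and 2.24%) and ACGCAG (21.1% and 2.36%) came next. In centres the same 4 strings stood at the head of the ranking, with GCGCGC leading. GCGCGC itself occurred in 11.9% of members and 6.88% of centre promoter peaks, and the replicates differed by 4.64 ± 1.03 points (SD, n = 3), with arms higher in 3 of 3. Since these hexamers were picked for their frequency at arm summits, their differences between arms and centres are descriptions with no test.

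Several of the leading hexamers overlap to form GAGACGCA, which overlaps GACGCA and other strings above. This string was present within 50 bp of the summit in 130 members (15.4%) and 160 centre promoter peaks (8.73%), against 0.767% and 0.464% of their flanks. Windows of that length centred 150 bp upstream of all coding genes held it in 1.79% of cases on the arms and 1.26% in the centres. Replicates gave 14.5%, 13.97% and 12.9% on the arms, against 7.66%, 8.33% and 8.16% in the centres, a difference of 5.76 ± 1.07 points (SD, n = 3), given with no test for the same reason. All 8 arms were above their own centre, from 9.77% on the right of II to 20.3% on the left of V, against 7.20% to 10.2% in the centres. Its median distance from the summit was 21 bp. Where it occurred on a single strand, it read in the direction of the nearest gene in 49 members and against it in 78. Members with the string had a median signal of 139.2 and those without it 131.0.

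Much of this string was in soft-masked sequence. On the arms 95 of its 140 matches held a soft-masked base (67.9%), and in the centres 89 of 164 (54.3%). A match free of soft-masked bases was present in 43 members (5.08%) and 75 centre promoter peaks (4.09%). The part of repeats in the difference between arms and centres was not tested further. The 3 strongest members with the string and no untranslated or coding base within 50 bp were those at set-16, ntl-11 and mrps-7, a mitochondrial ribosomal protein gene. They lie at chrIII:13643698-13643798, chrIV:15471567-15471667 and chrIV:14767868-14767968 and are given here on the plus strand with the string, or its reverse complement, in capitals.
set-16: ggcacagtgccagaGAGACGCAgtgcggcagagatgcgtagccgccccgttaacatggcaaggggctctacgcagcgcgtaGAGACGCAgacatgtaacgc
ntl-11: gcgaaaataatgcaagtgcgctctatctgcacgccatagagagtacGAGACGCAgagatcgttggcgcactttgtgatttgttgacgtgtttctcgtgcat
mrps-7: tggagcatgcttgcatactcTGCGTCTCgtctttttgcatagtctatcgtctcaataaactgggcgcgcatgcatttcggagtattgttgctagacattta
The set-16 window held the string more than once and the other windows a single time. The GC content of the set-16 window was 62.4%, that of the ntl-11 window 48.5% and that of the mrps-7 window 44.6%.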

How the data were processed

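The authors deposited narrowPeak lists in ce11 and ce10, of which ce11 was used. Per the notes deposited with the files, relaxed lists were called for each replicate and for the pooled replicates against 1 shared control alignment, and the optimal list passed the authors' IDR (irreproducible discovery rate) threshold. Each peak has a signal value from the authors' caller and the −log10 of a q-value as deposited; the latter is the same for all optimal peaks and was not used further. Names of caller and aligner were not given in the sources used here. No read counts are in the files, so depth is unknown and no interval was computed.

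The optimal list gave the members and all descriptions. For tests, the 5993 strongest peaks of each replicate list, the size of the optimal list, were taken, and arms minus centres was compared over the 3 replicates with an exact sign-flip permutation test (8 assignments, two-sided). Starts came from Ensembl release 115 (WBcel235), sequence and soft-masking from RefSeq. Composition was read from the 101 bp centred on each summit, with flanks 300 bp to either side. A gene was placed on an arm or centre by its start. Hexamer ratios had 1 added to each count. Gene lists were taken by symbol or symbol pattern. Members and lists were chosen with earlier results of these data known. Genes named are those nearest the 3 strongest peaks of each arm, up to 3 per list, and those at the limits, lowest signals and extreme rank differences; the strings GAGACGCA and GCGCGC, and the 3 sequences shown for the former, were chosen after values were seen. The code was tested on simulated data. Python 3.11.15, numpy 2.4.6, pandas 2.3.3 and matplotlib 3.10.9 were used.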

Additional observations from a re-analysis of the deposited data

How the results depend on the processing

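The alternatives were the optimal list, whole relaxed lists, the strongest 2996 peaks, arms of 3.0 or 4.0 Mb, a window of 1000 bp upstream to 200 bp downstream, summit windows of 25 or 100 bp to either side and leaving out each replicate. Arms minus centres in genes with a peak was -3.85 points in the optimal list, 1.26 in whole relaxed lists and, among alternatives chosen after seeing the data, 4.43 in the pooled list and -6.87 as the mean within chromosomes. Summits in windows differed by -0.0477 points in the optimal list, 0.342 with 3.0 Mb arms and -8.79 in whole relaxed lists. Peaks per Mb gave a ratio of 0.652 in the optimal list. The signal ratio was 1.03 among the strongest 2996 peaks, with an SD over replicates of 0.0376. Whole relaxed lists gave a signal ratio of 0.803 (below 1), a GC difference of -0.00590 points and a distance difference of -35.2 bp. Soft-masked bases differed by 5.02 points in the optimal list and 12.9 in whole relaxed lists. AGGTCA differed by -0.116 points with 4.0 Mb arms, -0.130 in the narrower and -0.0664 in the wider summit window, and from -0.185 to 0.536 on leaving out a replicate, the lowest without replicate 2. Divergent pairs differed by -0.574 points in the optimal list, 1.09 in the shorter window, -6.71 among the 2996 strongest and -3.31 in whole relaxed lists. Members matched in all replicates exceeded centre peaks by 4.44 points, by 1.19 with whole lists and by 1.79 with an 80% overlap. The causes were not tested. The series has a single group of samples, so no pairing between groups was possible. Arms and centres were paired within each replicate. Depth is unknown, so differences between replicates cannot be set against it.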
